A study of Mus musculus with 6 samples.

Results

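Regulatory T (Treg) cells of the pancreas and spleen of NOD mice were compared for 9 chemokine receptor genes, Cxcr6, Ccr8, Cxcr3, Ccr2, Ccr4, Ccr6, Ccr9, Cxcr4 and Cx3cr1. These genes are receptors linked to the entry of T cells into tissues, and they were picked with earlier results of these data known. Each of the 9 had 1 probe set naming no other gene, out of 19752 genes measured this way. Treg cells are CD4 T cells whose identity depends on the transcription factor Foxp3 and whose role is to hold back immune responses. NOD mice develop autoimmune diabetes spontaneously. All cells came from 10-week-old, prediabetic female NOD mice, labelled as NOD NRB_SFB+, that carried the Foxp3-ires-gfp reporter, in which green fluorescent protein marks cells with Foxp3. Cells of both tissues were double-sorted as DAPI- CD4+ TCRb+ CD45+ GFP+ cells, and their amplified RNA was hybridised to 6 Affymetrix Mouse Gene 1.0 ST arrays, 3 for each tissue. Whether the arrays of a tissue came from separate mice or from pools is not stated in the labels. The p-values therefore cover the spread among these arrays alone, and that spread may be technical. The question is which receptors distinguish Treg cells inside the target tissue of the disease from those of the spleen.

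Chemokine receptors are proteins that cross the membrane 7 times and signal through inhibitory G proteins. A T cell that carries a given receptor moves along gradients of its ligand and can stop on vessel walls that display it. Cxcr6 binds the membrane-anchored chemokine Cxcl16 and is found on effector and tissue-resident lymphocytes. Ccr8 binds Ccl1 and Ccl8 and marks Treg cells of non-lymphoid tissues and tumours. Cxcr3 binds the interferon-induced chemokines Cxcl9, Cxcl10 and Cxcl11, and its gene is a target of T-bet, the transcription factor of T helper 1 cells.

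The genes that define the sort were present. All 11 measured Treg and T cell identity genes, among them Foxp3, Ikzf2, Cd4 and Cd3e, were above background on every array. Of the 11, 0 passed the test between tissues, against 0.678% of all genes (median log2 fold change -0.04). The smallest adjusted p values were those of Ctla4, which encodes a brake on co-stimulation (0.60 on the log2 scale, adjusted p = 0.318), and Il2ra, the gene of an interleukin-2 receptor chain (-0.32, adjusted p = 0.842). The pancreas arrays also carried signal of genes that the sort does not select for, with 9 of 10 acinar markers past the test and higher there. Background here is an intensity of 63.4, or 5.99 on the log2 scale, the level under which 95% of olfactory and vomeronasal receptor genes lay. Each of the 9 chemokine receptors was above it on all 6 arrays. The spread of values differed between arrays, and on the log2 scale the interquartile range of pancreas arrays 1 to 3 was 3.07, 2.72 and 2.23, while that of spleen arrays 1 to 3 was 2.49, 2.80 and 3.00.

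Pancreatic Treg cells had higher levels of 3 of the 9 receptor genes, Cxcr6, Ccr8 and Cxcr3, and 0 of the 9 were lower there, at an adjusted p under 0.05 (limma, with Benjamini-Hochberg adjustment over all 19752 genes). By the same test 0.547% of all genes were higher in pancreas and 0.132% lower, or 0.678% in either direction. Since the receptors were picked with such results known, the count of 3 of 9 describes them and is no evidence about receptors as a class. The arrays of the tissues did not overlap for 4 receptors that were higher in pancreas and 1 that was lower, against 4.57% and 5.81% of all genes. The median log2 fold change of the 9 was 0.12, beside -0.00 over all genes, and the single values ran from 2.22 for Cxcr6 to -0.48 for Ccr9. The share of all genes past the test was 0.324% when spleen array 1 was left out and 1.33% when pancreas array 3 was, and was 0.334%, 0.44% and 0.375% without pancreas array 2, spleen array 2 and spleen array 3. The number of receptors past the test was 2 to 4 in these fits.

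**Figure D1:**
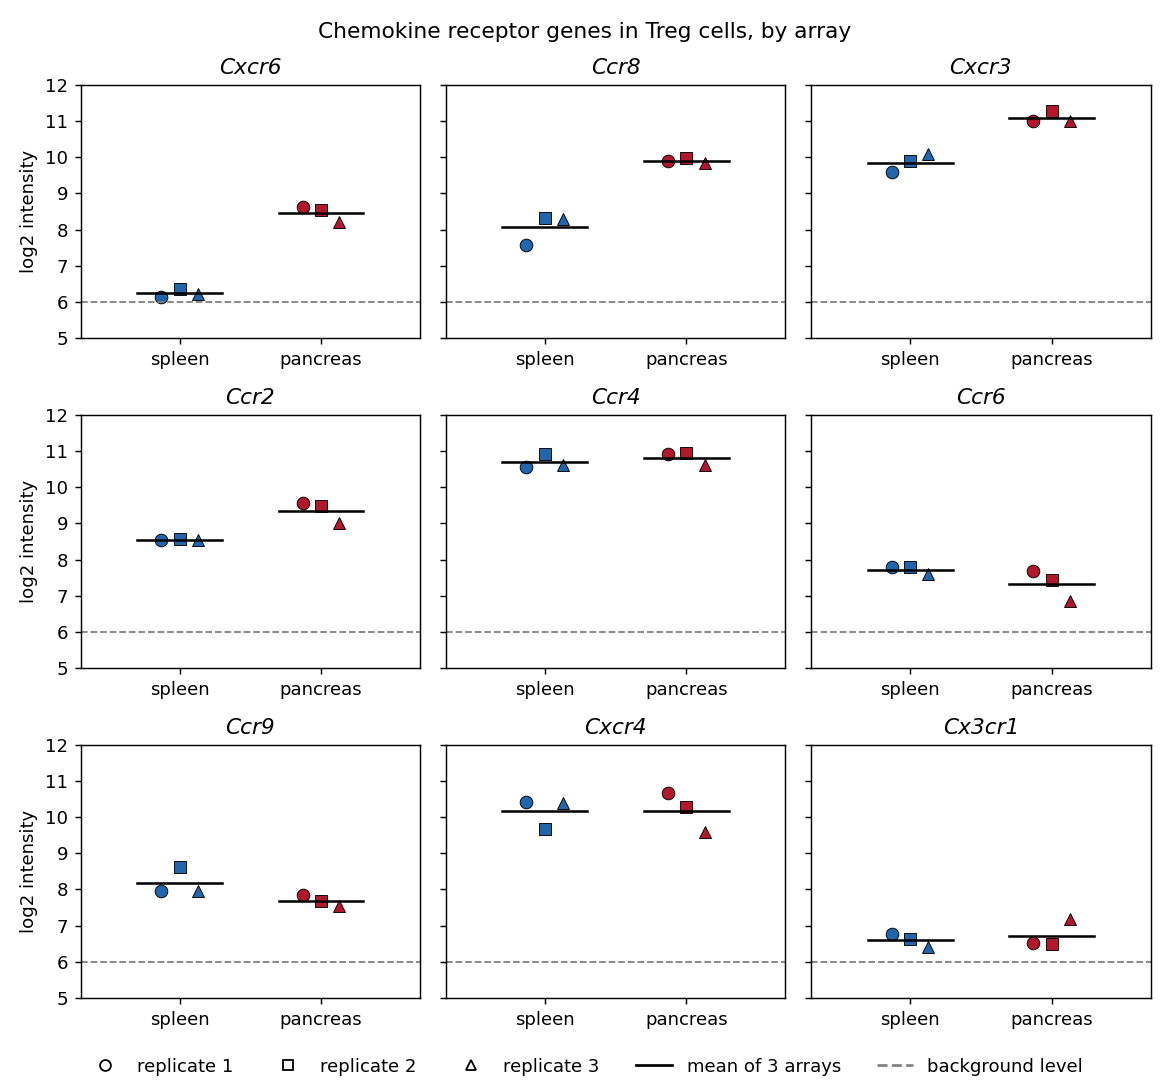
Log2 intensity of the 9 chemokine receptor genes on each array, with spleen at left and pancreas at right of each panel. Points are single arrays, bars are means of 3 arrays, and the dashed line is the background level of 5.99. The points of the tissues are apart for Cxcr6, Ccr8, Cxcr3 and Ccr2, which were higher in pancreas, and for Ccr9, which was lower.

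Cxcr6 had the largest difference of the 9. Its log2 intensity was 8.63, 8.54 and 8.21 on pancreas arrays 1 to 3 and 6.13, 6.37 and 6.22 on spleen arrays 1 to 3. The splenic values lay just above the background level of 5.99, and the lowest pancreatic array was 1.84 above the highest splenic one. The difference was 4.66-fold, with a 95% interval from 3.57-fold to 6.08-fold (log2 fold change 2.22 ± 0.17 SE, n = 3 each, limma adjusted p = 0.000303). Among all 19752 genes it ranked 28th by log2 fold change towards pancreas and 6th by p-value. Leaving out any 1 of the 6 arrays kept the call, with a log2 fold change between 2.14 and 2.34. In bulk samples such as these, a larger share of cells with the receptor and more of its RNA per cell cannot be told apart.

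Ccr8 was even across the pancreas arrays and uneven across the spleen arrays. Its log2 intensity was 9.91, 9.98 and 9.84 on pancreas arrays 1 to 3 and 7.57, 8.33 and 8.30 on spleen arrays 1 to 3. Spleen array 1 was the lowest, and the groups were 1.51 apart at their nearest arrays. The SD was 0.07 in pancreas and 0.43 in spleen, and the pancreatic SD was larger than that of only 5.1% of the 12049 genes above background in either tissue. Ccr8 was 3.59-fold higher in pancreas, with a 95% interval from 2.58-fold to 5-fold (log2 fold change 1.84 ± 0.22 SE, limma adjusted p = 0.00362). Without spleen array 1 the log2 fold change was 1.60, the smallest of the 6 fits with 1 array left out, all of which kept the call.

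Cxcr3 stood clear of background in both tissues and was higher in pancreas. It was at 10.99, 11.27 and 10.99 on pancreas arrays 1 to 3 and at 9.59, 9.89 and 10.08 on spleen arrays 1 to 3, again on the log2 scale. The lowest pancreatic array was 0.91 above the highest splenic one. The difference was 2.35-fold, with a 95% interval from 1.77-fold to 3.1-fold (log2 fold change 1.23 ± 0.18 SE, limma adjusted p = 0.0148). The call of Cxcr3 ended without pancreas array 2 (adjusted p = 0.0855), spleen array 1 (0.0523) or spleen array 2 (0.0606). Centring the arrays on their medians (adjusted p = 0.0653) ended it too, as did scaling the arrays to a common interquartile range (0.127), and the log2 fold change in these fits was 1.21 and 1.41.

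The stretches of DNA before the start sites of these 3 genes are shown because these genes passed the test. They are RefSeq sequence of GRCm38.p6, 250 bases each, 5′ to 3′ on the strand of the gene. They lie at chr9:123806227-123806476 (plus strand) for Cxcr6, chr9:120091883-120092132 (plus strand) for Ccr8 and chrX:101734148-101734397 (minus strand) for Cxcr3. Capitals mark matches on either strand to TCACAC, the core bound by T-box factors such as T-bet, or to ACCACA, the core bound by RUNX factors. The AP-1 motif TGANTCA was searched too.
Cxcr6: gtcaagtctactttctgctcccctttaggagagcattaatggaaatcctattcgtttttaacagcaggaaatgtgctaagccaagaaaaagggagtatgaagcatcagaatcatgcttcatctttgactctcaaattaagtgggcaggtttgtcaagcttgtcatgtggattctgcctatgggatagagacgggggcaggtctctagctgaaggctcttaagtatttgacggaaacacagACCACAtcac
Ccr8: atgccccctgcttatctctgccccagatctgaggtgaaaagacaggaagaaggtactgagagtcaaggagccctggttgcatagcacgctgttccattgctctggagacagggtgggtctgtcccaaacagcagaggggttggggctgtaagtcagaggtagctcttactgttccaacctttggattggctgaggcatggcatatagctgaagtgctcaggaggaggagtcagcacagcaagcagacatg
Cxcr3: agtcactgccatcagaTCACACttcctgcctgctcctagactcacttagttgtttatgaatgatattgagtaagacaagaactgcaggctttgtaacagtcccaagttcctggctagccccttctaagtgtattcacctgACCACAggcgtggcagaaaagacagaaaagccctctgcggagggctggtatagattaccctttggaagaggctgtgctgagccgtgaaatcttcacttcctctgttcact
The Cxcr3 window held 1 T-box and 1 RUNX match, the Cxcr6 window 1 RUNX match that ended 4 bases before the start site, and the Ccr8 window held none of the 3 motifs. No 2 matches overlapped. Of all 32851 promoter windows of this length in the table, 12.3% held the T-box letters, 14.0% the RUNX letters and 6.75% the AP-1 letters. The other 6 receptors have 7 windows, since Ccr6 has 2 start sites in the table, and among these Cx3cr1 held 1 RUNX match and Ccr4 1 AP-1 match. The RUNX letters were thus also found before Cx3cr1, which did not pass the test. The AP-1 letters were found only before Ccr4, which did not pass either. None of the 3 motifs was found before all 3 receptors that passed. Whether the motifs bear on the receptor levels was not tested.

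Ccr2, the receptor for Ccl2 that guides monocytes and some T cells to inflamed tissue, lay next in order. Its log2 intensity was 9.56, 9.47 and 9.01 on pancreas arrays 1 to 3 and 8.53, 8.58 and 8.53 on spleen arrays 1 to 3. Pancreas array 3 was the lowest of its tissue, still 0.44 above the highest splenic array. The log2 fold change was 0.80 ± 0.18 SE, or 1.74-fold with a 95% interval from 1.32-fold to 2.31-fold, and did not pass the test (limma adjusted p = 0.104). Ccr2 passed in 3 separate fits. These were without pancreas array 3 (log2 fold change 0.97, adjusted p = 0.00873), after quantile normalization (0.84, adjusted p = 0.0212) and with array weights (0.87, adjusted p = 0.000604).

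The means of Ccr4, Cxcr4 and Cx3cr1 were close in the tissues. Ccr4, the receptor for Ccl17 and Ccl22 that brings Treg cells to skin and to dendritic cells, was at 10.91, 10.94 and 10.61 in pancreas and 10.55, 10.93 and 10.62 in spleen. Its arrays overlapped, and the 95% interval of the difference ran from 0.827-fold to 1.43-fold (adjusted p = 1). This interval leaves out a difference as large as that of Cxcr3.

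Cxcr4, the receptor for Cxcl12 that holds leukocytes in bone marrow and other stroma, had the largest SD of the 9 in pancreas and, after Ccr8, the next largest in spleen. It was at 10.68, 10.27 and 9.59 in pancreas and 10.42, 9.68 and 10.39 in spleen, so that each tissue held both high and low arrays. Its SD of 0.55 in pancreas and 0.42 in spleen exceeded that of 95.6% and 94.5% of genes above background. The 95% interval of the difference ran from 0.651-fold to 1.58-fold (adjusted p = 1), and its sign turned without pancreas array 1 (log2 fold change -0.23), pancreas array 2 (-0.03) or spleen array 2 (-0.23).

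Cx3cr1, the receptor for the membrane-bound chemokine Cx3cl1 that marks monocytes and cytotoxic lymphocytes, was at 6.51, 6.48 and 7.18 in pancreas and 6.77, 6.64 and 6.40 in spleen. Pancreas array 3 stood above the other 5 arrays, and without it the log2 fold change went from 0.12 to -0.11. The test was not passed (adjusted p = 1), and the 95% interval ran from 0.781-fold to 1.51-fold.

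Ccr9 and Ccr6, the receptors of mucosal homing, had lower means in pancreas. Ccr9 binds Ccl25 of the small intestine and thymus, and its log2 intensity was 7.85, 7.69 and 7.53 in pancreas against 7.97, 8.61 and 7.95 in spleen. All pancreatic arrays lay below all splenic ones, by as little as 0.10, and spleen array 2 was the high one. The log2 fold change was -0.48 ± 0.21 SE, or 1.4-fold higher in spleen with a 95% interval from 1.02-fold to 1.92-fold, and did not pass the test (limma adjusted p = 0.682). Without spleen array 2 it was -0.27, and with array weights it was -0.73 and passed (adjusted p = 0.0171). Ccr6, the receptor for Ccl20 found on T helper 17 cells and B cells, was at 7.67, 7.44 and 6.85 in pancreas and 7.78, 7.80 and 7.59 in spleen. Pancreas array 1 overlapped the spleen arrays, and the log2 fold change was -0.41 ± 0.22 SE (adjusted p = 0.886). Pancreas array 3 was the low one, and without it the log2 fold change was -0.17.

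**Figure D2:**
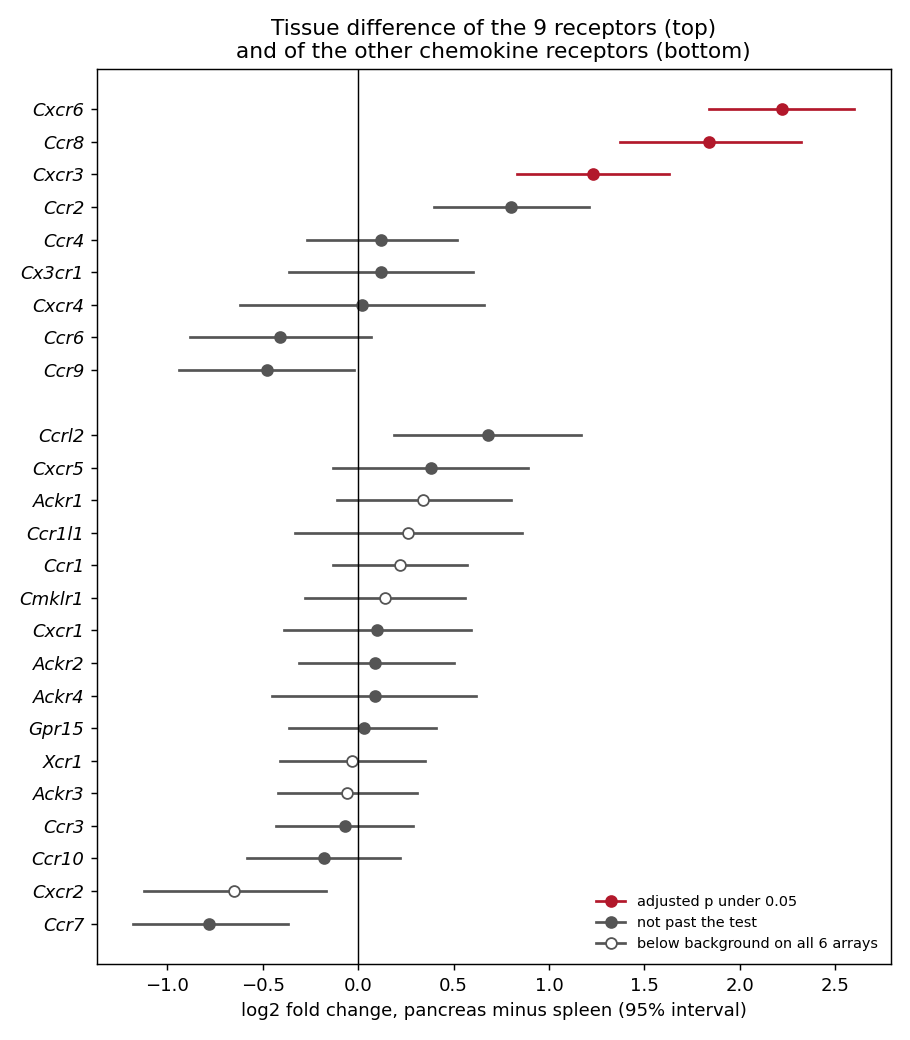
Log2 fold change of pancreas against spleen with its 95% interval from limma, for the 9 receptors (top) and 16 other chemokine and related receptors (bottom). Red marks the genes with an adjusted p under 0.05, which are Cxcr6, Ccr8 and Cxcr3, and open points are genes below background on all 6 arrays.

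In order of log2 fold change, Cxcr6 (2.22) and Ccr8 (1.84) came first, then Cxcr3 (1.23), Ccr2 (0.80), Ccr4 (0.12), Cx3cr1 (0.12), Cxcr4 (0.02), Ccr6 (-0.41) and Ccr9 (-0.48). The 95% intervals of neighbours in this order overlapped. Those of Cxcr6 (1.84 to 2.60) and Cxcr3 (0.83 to 1.63) did not, nor did those of Ccr8 (1.37 to 2.32) and Ccr2 (0.40 to 1.21). Differences between receptors were not tested.

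Several receptors ran with the width of the pancreas arrays. On these, whose interquartile range was 3.07, 2.72 and 2.23, Cxcr4, Ccr6, Ccr9, Ccr2 and Cxcr6 had their highest value on array 1 and their lowest on array 3, and Cx3cr1 had its highest on array 3. On the spleen arrays, with an interquartile range of 2.49, 2.80 and 3.00, none of these 5 was highest on array 3, the widest. Cxcr3 did rise with the width there, at 9.59, 9.89 and 10.08 on spleen arrays 1 to 3. Cx3cr1 fell with it, at 6.77, 6.64 and 6.40. How many of all genes had such orders was not counted. The median deviation of the 9 receptors from their tissue mean was 0.16, 0.09 and -0.21 for pancreas arrays 1 to 3 and -0.11, 0.08 and -0.02 for spleen arrays 1 to 3, on the log2 scale. After quantile normalization, which gives all arrays 1 width, the range of Cxcr6 over the pancreas arrays went from 0.42 to 0.04 and that of Ccr9 from 0.32 to 0.08. The range went from 0.55 to 0.23 for Ccr2, from 0.82 to 0.68 for Ccr6 and from 1.09 to 0.82 for Cxcr4. It widened for Cx3cr1, from 0.69 to 0.87, and for Ccr8, from 0.14 to 0.20. Cxcr6, Ccr8 and Cxcr3 passed the test on these values too (log2 fold change 2.24, 1.87 and 1.20).

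The plot of fold changes under other processing shows that the differences which changed sign were those of Cxcr4 and Cx3cr1. With 11 other ways of processing the values, Cxcr6 ran from 2.01 to 2.24, Ccr8 from 1.72 to 1.98 and Cxcr3 from 1.20 to 1.41. Several of the 11 alter only the test and leave the fold changes of the 9 receptors fixed. These are values raised to background, genes below it left out, means over probe sets and another variance model. Leaving out the markers of other cells, which only drops their rows, and a replicate block do the same. Cxcr6 and Ccr8 passed the test in 10 of the 11 and Cxcr3 in 8. The exception shared by all 3 was setting values under background to that level. There the values of the 9 receptors stayed as they were, since all lie above background, and the prior degrees of freedom went from 6.58 to 0.354.

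**Figure D3:**
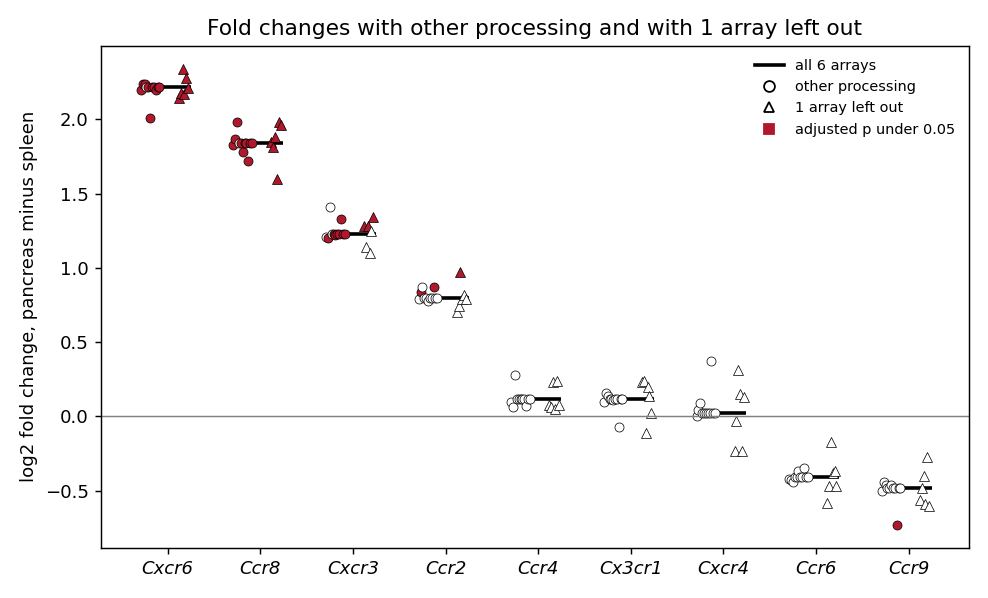
Log2 fold change of pancreas against spleen for each receptor with all 6 arrays (bar), with 11 other ways of processing (circles) and with each array left out in turn (triangles). Filled symbols had an adjusted p under 0.05. Cxcr6 and Ccr8 were filled in all 6 fits with 1 array left out and Cxcr3 in 3 of them, and Cxcr4 and Cx3cr1 lay on both sides of 0.

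Of the 9 receptor genes, 6 lie on chromosome 9, and neighbours there had different values. In the RefSeq gene table of GRCm38.p6, Ccr8 and Cx3cr1 are adjacent protein-coding genes, with log2 fold changes of 1.84 and 0.12 and 95% intervals of 1.37 to 2.32 and -0.36 to 0.60. The stretch from Ccr9 to Ccr2 holds 8 protein-coding genes in that table, in the order Ccr9, Fyco1, Cxcr6, Xcr1, Ccr1, Ccr1l1, Ccr3 and Ccr2. Cxcr6 passed the test and the other 7 did not. Its nearest neighbours Fyco1, a gene of vesicle transport, and Xcr1, the receptor of cross-presenting dendritic cells, were at -0.61 (adjusted p = 0.309) and -0.03 (adjusted p = 1). Xcr1, Ccr1 and Ccr1l1 were below background on all 6 arrays. Ccr3, the eotaxin receptor, was at 7.03 ± 0.06 in pancreas and 7.10 ± 0.18 in spleen (SD, n = 3 each).

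**Figure D4:**
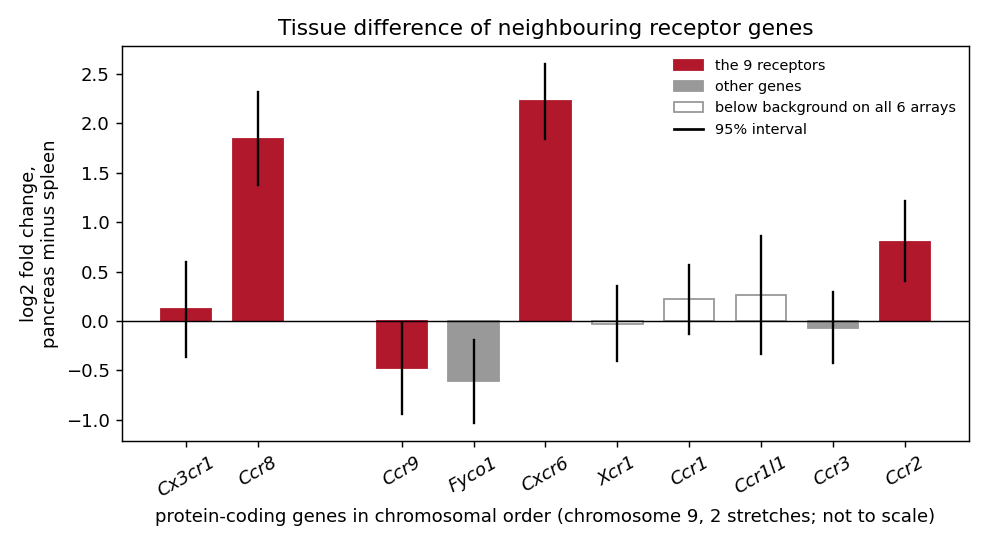
Log2 fold change of pancreas against spleen, with 95% intervals, for protein-coding genes of chromosome 9 in their order, in the stretch of Cx3cr1 and Ccr8 (left) and from Ccr9 to Ccr2 (right). Red bars are members of the 9 receptors and open bars are genes below background on all 6 arrays. Ccr8 and Cxcr6 stand at 1.84 and 2.22 beside neighbours at 0.12, -0.61 and -0.03.

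Markers of other cells that carry these receptors were measured on the same arrays. Of 9 B cell markers all 9 had a higher mean in pancreas and 1, Cd79a, passed the test (log2 fold change 1.86, adjusted p = 0.0482). Their summed intensity was 923 to 2023 in pancreas and 672 to 790 in spleen. Of 10 CD8 T and NK cell markers 1 passed, Klrd1 (log2 fold change 0.98, adjusted p = 0.0397), which was below background on all 6 arrays, as were the NK cell genes Klrb1c and Ncr1. Of the 10, 7 had a higher mean in pancreas and 3 a lower one. The arrays of 3 did not overlap and were higher in pancreas, against 4.57% of all genes. These were Klrd1, Klrk1 (0.84, limma adjusted p = 0.0871) and Ncr1 (0.86, adjusted p = 0.104), all below background. The summed intensity of these markers overlapped, at 1174 to 1449 in pancreas and 1076 to 1301 in spleen. This sum depends mostly on the brighter genes, among them Cd8a, which had a log2 fold change of 0.01.

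Of 11 macrophage, monocyte and dendritic cell markers 1 passed, the lysozyme gene Lyz2 (log2 fold change 1.90, adjusted p = 0.00134). Their summed intensity was 841 to 923 in pancreas and 596 to 683 in spleen, and 7 of the 11, among them Csf1r, Adgre1 and Itgax, were below background on all 6 arrays. The acinar markers of the exocrine pancreas showed the widest gap, with 9 of 10 higher in pancreas and a median log2 fold change of 3.26. Their summed intensity was 16154, 24999 and 12224 on pancreas arrays 1 to 3 and 984, 915 and 2423 on spleen arrays 1 to 3. Pancreas array 2, with the highest acinar sum and, at 923, the lowest B cell sum of its tissue, had the highest Ccr8 (9.98) and Cxcr3 (11.27) but not the highest Cxcr6 (8.54). This order depended on the normalization. After quantile normalization Ccr8 was highest on pancreas array 3 (10.00) and Cxcr6 on array 2 (8.50), while Cxcr3 stayed highest on array 2 (11.20). The islet markers (8 genes, summed intensity 473 to 683 in pancreas and 500 to 608 in spleen), granulocyte and mast cell markers (8 genes, 232 to 340 and 246 to 305) and endothelial and stromal markers (10 genes, 1134 to 1174 and 1395 to 1481) had 0 genes past the test. The share of all genes past the test was 0.678%. Of the endothelial and stromal markers only Pecam1, which leukocytes also carry, had arrays that did not overlap (mean log2 intensity 8.80 in pancreas and 9.61 in spleen). The part of the B cell, NK cell, myeloid and acinar signal in the receptor values was not tested.

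Other chemokine receptors were read from the same fit. Of 16 measured, 0 passed the test in either direction, against 0.678% of all genes. At so low a share, a count of 0 says nothing about these receptors as a group. Their median log2 fold change was 0.09, and 7 were below background on all 6 arrays. Arrays did not overlap for 2 that were higher in pancreas and 2 that were lower, against 4.57% and 5.81% of all genes. Ccr7, which leads T cells into lymph nodes and the T cell zones of the spleen, was at 10.56, 10.45 and 10.26 in pancreas and 10.95, 11.17 and 11.47 in spleen. These arrays did not overlap, but the difference did not pass (log2 fold change -0.78, adjusted p = 0.123). Ccrl2, a receptor that binds chemerin without signalling, was at 0.68 (adjusted p = 0.373), and Cxcr5, the receptor of follicular T cells, at 0.38 (adjusted p = 0.991).

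Ligands of the 9 receptors were mostly low in the sorted cells. Of 16 measured, 8 were below background on all 6 arrays, among them Cxcl16, Ccl8 and Cxcl12. The test was passed by 0 of the 16, against 0.678% of all genes (median log2 fold change 0.05). The smallest adjusted p values were those of the Cxcr3 ligands Cxcl9 and Cxcl10. Cxcl11, the other ligand of Cxcr3, was below background on all 6 arrays (log2 fold change 0.00, adjusted p = 1). Cxcl9 was at 6.46, 6.72 and 7.29 in pancreas, with all 3 spleen arrays below background (log2 fold change 0.98 ± 0.21 SE, adjusted p = 0.0871). Cxcl10 was at 8.45, 8.45 and 8.73 in pancreas and 7.32, 8.01 and 7.65 in spleen (log2 fold change 0.89, adjusted p = 0.105), and the Ccr8 ligand Ccl1 was at 0.35 (adjusted p = 0.766).

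Genes of signalling downstream of the receptors had no call between tissues. The 23 measured included the G protein subunits, arrestins, receptor kinases, Rac and Rap GTPases and their activators. Of these 0 passed, against 0.678% of all genes, with a median of -0.06. At that share a count of 0 says nothing about the group. The smallest adjusted p values were those of the arrestin gene Arrb1 (-0.48, adjusted p = 0.73) and of Rassf5, which links Rap1 to integrins (-0.30, adjusted p = 0.967). Of 15 measured genes for integrins, selectin ligands and other adhesion partners, 0 passed, again against 0.678% of all genes (median 0.02). Pecam1, an adhesion molecule of vessel walls and leukocytes, was at -0.81 (adjusted p = 0.112), Itgae, which encodes the integrin chain CD103, at 0.83 (adjusted p = 0.131), and Gcnt1, an enzyme that builds selectin ligands, at 0.70 (adjusted p = 0.409).

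Among 14 transcription factors linked to these receptors 3 passed the test as higher in pancreas and 0 as lower, against 0.547% and 0.132% of all genes. The median log2 fold change was 0.45, and 5 of the 14 had a lower mean in pancreas. The list was chosen with earlier results of these data known, so the count describes it alone. Tbx21, the gene of T-bet, was at 8.53, 9.31 and 8.53 in pancreas and 6.97, 7.45 and 7.64 in spleen (log2 fold change 1.44, adjusted p = 0.0324). As with Cxcr3, pancreas array 2 was the highest of its tissue and spleen array 1 the lowest. Ccr8, Foxp3 and Batf had this order too, so it was not particular to Tbx21 and Cxcr3. Prdm1, which encodes the repressor Blimp-1 of effector lymphocytes, was at 1.21 (adjusted p = 0.0215), and Id2, an inhibitor of E proteins, at 1.02 (adjusted p = 0.0473). Gata3, the factor of T helper 2 cells, was at -0.08, and Irf4 and Batf, factors of effector Treg cells, were at 0.61 (adjusted p = 0.646) and 0.47 (adjusted p = 0.823).

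Genes whose profile over the 6 arrays was nearest to that of each receptor past the test were found by the root mean square difference of their mean-centred log2 values, among 11521 genes above background. For Cxcr6 they were Fos, a transcription factor gene of the early response (0.13), Lilrb4a, an inhibitory receptor gene (0.18), and Dmbt1, a secreted glycoprotein of epithelia (0.21), whose spleen arrays were all below background. For Ccr8 they were Il1r2, the decoy receptor of interleukin-1 (0.14), the cytotoxic granule gene Nkg7 (0.14) and the nuclear receptor gene Nr4a2 (0.20). For Cxcr3 they were Irf8, an interferon regulatory factor gene (0.09), Fgl2, a secreted suppressive protein (0.13), and Fosb, a relative of Fos (0.13). Among the receptors themselves, Cxcr6 and Ccr8 were 0.29 apart by this measure, Ccr8 and Cxcr3 0.34, and Cxcr6 and Cxcr3 0.53, while Ccr6 and Ccr9 were the nearest pair at 0.25. Centring on the mean of all 6 arrays keeps the tissue difference, so genes with like fold changes come out near. The distances do not measure change within a tissue alone.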

How the data were processed

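The authors deposited 1 linear intensity per probe set and array. The submitters' processing notes name RMA and Affymetrix Power Tools, without versions. The array medians ran from 82.0 to 92.0, and the normalization between arrays is not stated. Values were taken to log2 with no pseudocount. The table held 24922 probe sets, of which 21425 name 1 gene in the platform annotation, 1399 several and 2098 none. For 921 genes with several, the probe set with the highest mean was used. Depth does not apply, and the number of arrays limits the precision.

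Tissues were compared with limma (version 3.58.1, R 4.3.3), lmFit and eBayes, two-sided, on all 6 arrays without covariates. The adjustment was Benjamini-Hochberg over 19752 genes, with a threshold of 0.05. Intervals of 95% are limma's. The fit was also run on simulated data with independent noise for each gene. That simulation left out the differences in width between these arrays, so it cannot decide whether the calls hold in such data. The receptors and the 13 other gene lists were chosen with earlier results of these data known. From each list, every gene past the test was to be named, otherwise up to 3 above background with the smallest adjusted p, and for each receptor past the test the 3 genes with the nearest profile, leaving out predicted genes and receptor segments. Cd8a, Gata3, Irf4, Batf, Fyco1, Ccr3, Cxcl11, Xcr1 and the genes named as below background or as identity genes were named outside this rule, after their values were seen. Of the acinar, islet, granulocyte and stromal genes only counts and sums are given, apart from Pecam1. Genes on the lists that no single-gene probe set covers are not analysed here. Motifs were searched in the RefSeq promoter table of GRCm38.p6. Figures used matplotlib 3.10.9 (Python 3.11.15). Alternatives covered normalization, low values, a pseudocount of 16, several probe sets, the variance model, array weights, leaving out the markers of other cells, a replicate block and leaving out each array.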

Additional observations from a re-analysis of the deposited data

How the results depend on the processing

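The count of 134 genes past the test was 38 with each array centred on its median, 203 after quantile normalization and 71 with arrays scaled to a common interquartile range. It was 84 with 16 added to each intensity, 3 with values raised to the background level where below it and 1671 with array weights, and between 64 and 262 with 1 array left out. The count of 3 receptors was 0 with values so raised and 5 with array weights, where Ccr2 and Ccr9 passed too, and between 2 and 4 with 1 array left out. The array weights, which ran from 0.336 on pancreas array 3 to 4.01 on spleen array 2, come from limma's gene-by-gene algorithm, since the default one stopped before convergence. The log2 fold change of Cx3cr1 turned to -0.07 with array weights and -0.11 without pancreas array 3, and that of Cxcr4 to -0.23, -0.03 and -0.23 without pancreas array 1, pancreas array 2 and spleen array 2. With 1 array left out, Cx3cr1 ran from -0.11 to 0.24 and Cxcr4 from -0.23 to 0.31. In the settings that alter only the test, the direction of a receptor could not change. Of all 153 receptor values under all the settings, 136 kept their direction and side of the threshold, 8 lost the call, 4 gained it and 5 changed sign. The cause of these changes was not tested. For arrays with the same replicate number, deviations from the tissue mean had correlations across genes of -0.20, 0.05 and -0.63 for numbers 1 to 3. These values were not corrected for the width of the arrays, which differed within the pairs. The correlations therefore cannot decide whether arrays with the same number belong together. With the replicate number as a block 132 genes and the same 3 receptors passed.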
